A study of Mus musculus with 2 samples.

Results

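The Stefin A cluster is a tandem array of genes for small inhibitors of cysteine proteases that lies beside Casr, the gene of the calcium-sensing receptor, on mouse chromosome 16. Its members here were 7 genes, namely Stfa1, Stfa2, Stfa3, Csta1, Csta3, Cstdc4 and Cstdc6, out of 17872 genes by symbol on the array, and they were measured by 8 of its 25697 probes. They were chosen with ratios from these arrays already known, so their ratios are given as a description and no test was made on them. A probe was taken when its symbol, an older synonym, its gene ID or its accession led to a member. Csta1, Csta3, Cstdc4 and Cstdc6 are listed in the deposited tables under the older names Csta, EG408196, EG433016 and BC117090, and Cstdc6 was reached only through its accession.

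The samples were epidermis of 5-day-old mice of the strain given as C57BL6, lifted from the dermis of back skin with dispase. The KO sample was RNA combined from 3 mice with floxed Casr alleles (CaSR fl/fl) and a Cre recombinase driven by the keratin 14 (K14) promoter. The CON sample was RNA combined from 3 littermates with the same floxed alleles (CaSR fl/fl CON). Keratin 14 is expressed by basal keratinocytes, so deletion by this Cre is aimed at keratinocytes and not at the other cells of the epidermis, and the labels do not say whether the controls carried Cre. One protocol sentence speaks of a VDR KO group, while the genotype and title of the sample name CaSR, and the genotype was followed. Each group was 1 pool on 1 Illumina bead array, so there are no replicates, no value below has a replicate error, and pool and genotype cannot be told apart.

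Stefins are the cystatins without a signal peptide or disulphide bonds. They act inside the cell and block papain-like cysteine proteases such as cathepsins B, H, L and S by filling the active-site cleft in a tight and reversible complex. Humans have a single stefin A gene, CSTA, whose protein is abundant in the upper epidermis and in the cornified envelope, and its loss in humans causes a skin-peeling disorder. In the mouse the gene has been duplicated many times, and members of the cluster are known from keratinocytes and from neutrophils and their precursors. The copies are alike in sequence, and the probe sequences were not among the files used here, so the signal of a probe may include transcripts of other members.

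The resemblance between the copies is visible in front of their start sites. The promoters of 4 members are shown, namely the pair with the highest ratios between KO and CON (Stfa2 and Stfa3), the member whose own probe had the ratio closest to 1 (Stfa1) and the member with a lower signal in KO (Csta3). Each line holds the 250 bases before the RefSeq start site, read 5′ to 3′ along the gene, from RefSeq on build GRCm38.p6. They lie at chr16:36408364-36408613 on the minus strand (Stfa2), chr16:36455393-36455642 on the minus strand (Stfa3), chr16:36276898-36277147 on the plus strand (Stfa1) and chr16:36210153-36210402 on the plus strand (Csta3). Capitals mark the TATA-like run TTTAAAA.
Stfa2: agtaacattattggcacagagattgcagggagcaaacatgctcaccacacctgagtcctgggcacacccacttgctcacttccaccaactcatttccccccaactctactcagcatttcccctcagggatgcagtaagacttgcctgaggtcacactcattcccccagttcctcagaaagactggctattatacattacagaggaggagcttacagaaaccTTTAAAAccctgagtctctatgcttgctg
Stfa3: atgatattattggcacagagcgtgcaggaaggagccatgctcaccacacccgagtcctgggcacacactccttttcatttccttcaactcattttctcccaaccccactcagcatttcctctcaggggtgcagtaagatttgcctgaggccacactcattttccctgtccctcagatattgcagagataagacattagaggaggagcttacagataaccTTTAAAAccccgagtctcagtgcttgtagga
Stfa1: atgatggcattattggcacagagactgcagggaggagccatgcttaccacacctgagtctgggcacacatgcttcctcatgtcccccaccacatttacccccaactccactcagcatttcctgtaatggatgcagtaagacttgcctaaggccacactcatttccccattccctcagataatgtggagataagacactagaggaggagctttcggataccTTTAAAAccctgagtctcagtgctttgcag
Csta3: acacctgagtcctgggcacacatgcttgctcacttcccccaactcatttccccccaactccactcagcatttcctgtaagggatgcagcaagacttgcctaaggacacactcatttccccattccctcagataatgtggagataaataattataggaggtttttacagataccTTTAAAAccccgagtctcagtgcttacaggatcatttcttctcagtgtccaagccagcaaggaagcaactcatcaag

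In a global alignment of these 250 bases, Stfa1 shared 83.5% of alignment columns with Stfa3 and 81.0% with Stfa2, and Stfa2 shared 80.4% with Stfa3. Csta3 shared 61.1% with Stfa1, 58.6% with Stfa3 and 57.5% with Stfa2. Gaps, also those at the ends, counted as columns that are not identical. The run TTTAAAA begins 77 bases before the annotated start of Csta3, against 29 to 31 in Stfa1, Stfa2 and Stfa3. The Csta3 window is therefore shifted, which lowers its percentages. Csta1, at the far end of the cluster from Casr, shared 39.0% with Stfa3, and the Casr promoter shared 52.5% with Stfa3. The Csta1 window ends in gaggccacactcattt, which Stfa3 also holds but further from its start site. The Csta1 window is thus shifted too, and these percentages do not rank how closely the promoters are related.

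**Figure D1:**
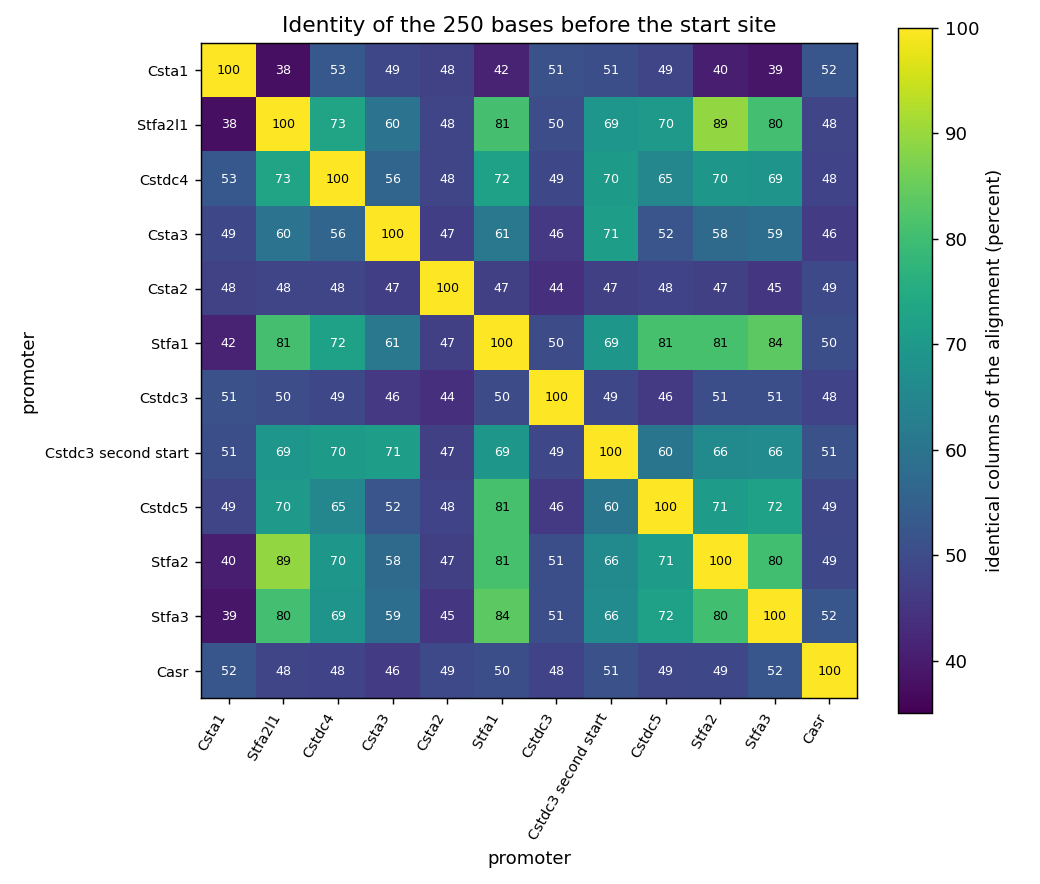
Percent identity between the 250 bases before the start sites of Stefin A family genes and of Casr, in gene order along the chromosome on both axes, with each cell giving the percent of identical alignment columns for a pair. Pairs among Stfa1, Stfa2, Stfa3, Cstdc4, Stfa2l1, Cstdc5 and the second start site of Cstdc3 have 60.3% or more. Csta3 has 71.1% to the second start site of Cstdc3. Csta1 has 39.0% to Stfa3, and windows shifted by their annotated start site score lower.

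The run TTTAAAA, searched on both strands, began 29 bases before the start site in Stfa2, 31 in Stfa3 and 30 in Stfa1, and also 29 in Cstdc4. In Csta3 it began 77 bases before the annotated start. It was present in 5 of the 6 members with a promoter sequence and not in Csta1, against 8.10% of 32851 mouse promoter windows of this length. The run was picked after the alignment had been seen. Other motifs were searched on both strands too. The AP-1 motif TGANTCA was in 0 of the 6 (6.75% of all windows) and the C/EBP motif TTGCNNAA in 2, Csta3 and Stfa1 (9.56%). The vitamin D receptor motif units AGTTCA (11.8% of all windows) and GGTTCA (8.85%) were in 0 of the 6, and the TATA box TATAAA was in 0 of the 6 (12.4%). A missing motif says only that these letters are not in these windows.

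On the arrays, 42.0% of probes in KO and 42.4% in CON were detected, that is, their detection p-value against the negative control beads did not exceed 0.01. All 8 Stefin A probes were detected in KO and 7 of them in CON. Signals are intensities from the authors' normalized table, in which background had not been subtracted (the lowest value was 106.2 in both samples). Fold changes and log2 ratios are KO over CON. Before the ratio was taken, signals were raised to the lowest signal of a detected probe on that array, 165.9 in KO and 164.9 in CON. As a measure of precision, the log2 ratio varied between the probes of a gene by an SD of 0.11 (1872 genes with several probes), so that 2 SDs amount to 1.17-fold. The pools and arrays themselves add variation that this SD leaves out.

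Stfa2 had the largest difference of the cluster. Its probe read 1541 in KO and 1044 in CON in the normalized table (1.48-fold, log2 ratio 0.56). Before normalization it read 2078 in KO and 1288 in CON (1.61-fold, log2 ratio 0.69). Stfa2 was therefore higher in KO in both tables, and it lay below 1.5-fold in the normalized table and above it in the other. Among the 10372 probes detected in both samples, 16 had a higher normalized ratio than Stfa2. The probe carries an older predicted accession and no gene ID, and it was assigned by its symbol.

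Stfa3, the gene next to Casr, had 2 probes, and both gave a higher signal in KO. The brighter probe read 9061 in KO and 6740 in CON after normalization (1.34-fold, log2 ratio 0.43). Before normalization it read 11988 in KO and 8882 in CON (1.35-fold, log2 ratio 0.43). The size of this difference was nearly the same in both tables, and 47 of the probes detected in both samples had a higher normalized ratio. This probe has an older predicted accession, and RefSeq lists Stfa3 as a former name of Stfa1 as well, so whether it reads Stfa3 or Stfa1 is not settled by the files. The dimmer probe, tied to Stfa3 by its gene ID, read 202.7 in KO (detection p-value 0) and 164.1 in CON (detection p-value 0.0113). In CON it thus stayed within background, so its ratio is a bound of at least 1.23-fold higher in KO. Before normalization the dimmer probe read 232.1 in KO and 178.0 in CON.

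Stfa1 had nearly the same signal in both samples. It read 15823 in KO and 15253 in CON after normalization (1.04-fold, log2 ratio 0.05). Before normalization it read 18942 in KO and 18065 in CON (1.05-fold, log2 ratio 0.07). This difference is smaller than the spread between probes of 1 gene. The signal lies near the top of the scale, whose highest values before normalization were 24909 in KO and 26092 in CON, and whether the probe still responds in proportion to its transcript there was not tested.

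Csta3 was the 1 member with a lower signal in KO. It read 455.8 in KO and 534.5 in CON after normalization (1.17-fold lower, log2 ratio -0.23). Before normalization it read 578.0 in KO and 638.8 in CON (1.11-fold lower, log2 ratio -0.14). The direction was the same in both tables, opposite to that of every other Stefin A probe.

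In the normalized table Csta1, Cstdc4 and Cstdc6 were slightly higher in KO, each by less than 2 SDs of the spread between probes. Before normalization each lay above 1.17-fold, but that limit comes from normalized ratios. All detected probes were shifted upward there too, with a median log2 ratio of 0.08. Csta1 read 721.6 in KO and 646.6 in CON (1.12-fold), and 946.9 and 783.0 before normalization (1.21-fold). Cstdc4 read 265.5 in KO and 236.6 in CON (1.12-fold), and 315.9 and 261.7 before normalization (1.21-fold). Cstdc6 read 245.4 in KO and 216.9 in CON (1.13-fold), and 288.3 and 238.0 before normalization (1.21-fold). The log2 ratios of these 3 genes lay between 0.16 and 0.18 in the normalized table, and their ratios before normalization were equal to the second decimal. Signals of Cstdc4 and Cstdc6 stood little above background, which draws a ratio towards 1.

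**Figure D2:**
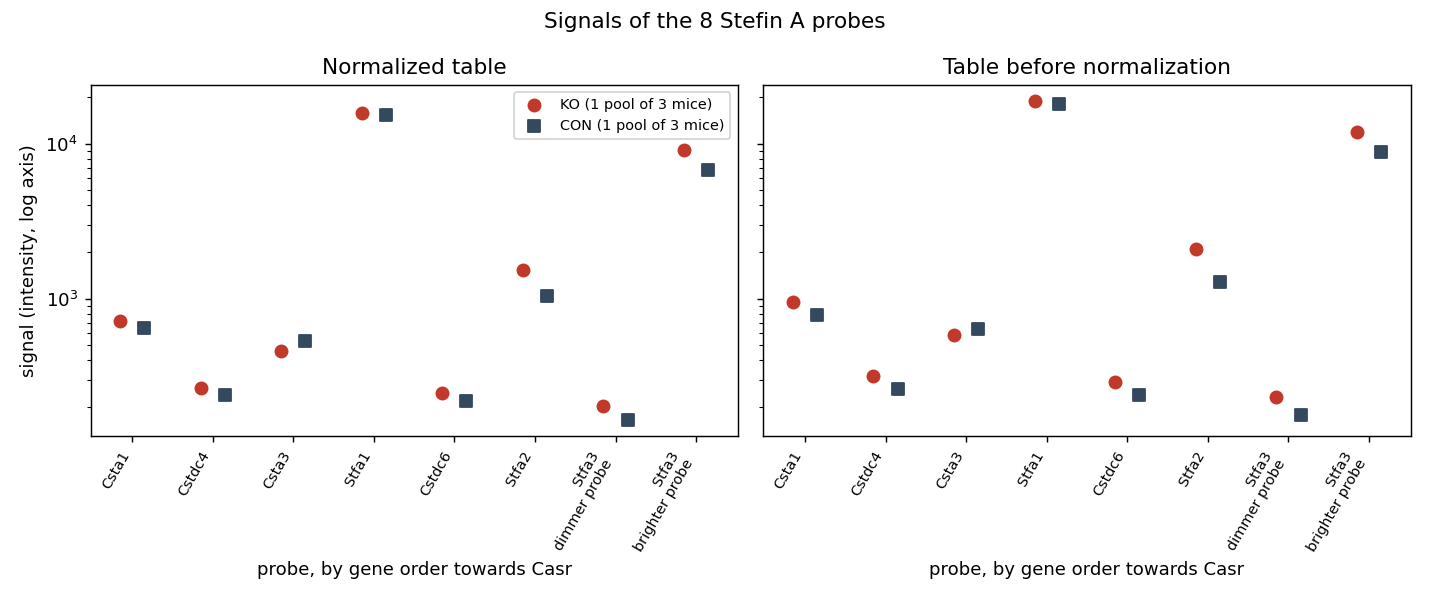
Signal of each of the 8 Stefin A probes (vertical log axes, intensity) in the KO pool (red circles) and the CON pool (dark squares), in the normalized table on the left and the table before normalization on the right, with 1 value a group and no error. KO lies above CON for 7 probes and below it for Csta3.

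Counted over the cluster, 7 probes had a ratio above 1 and 1 below, against 50.6% of all 11318 detected probes above 1. The median log2 ratio of the 8 probes was 0.17, and over all detected probes it was 0.002. At least 1.2-fold higher in KO were 3 Stefin A probes (Stfa2 and both Stfa3 probes), where 2.63% of all detected probes were, and at least 1.2-fold lower were 0, where 2.99% of all were. At least 1.5-fold higher were 0 of the 8, where 0.159% of all detected probes were, and at least 1.5-fold lower were 0, where 0.194% were. As the members were picked from these ratios, these shares carry no weight as a test. Log2 ratios in the cluster spanned -0.23 to 0.56. In the normalized table Stfa2, both Stfa3 probes and Csta3 exceeded 2 SDs of the spread between probes, Csta3 only just. Before normalization Csta3 (1.11-fold lower) did not, but the median log2 ratio of all detected probes was itself 0.08 there. The SD comes from normalized ratios, so the 2 tables are not compared on the same footing. Among probes detected in both samples, 4.67% had a lower ratio than Csta3 and 1.72% a higher ratio than the dimmer Stfa3 probe.

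**Figure D3:**
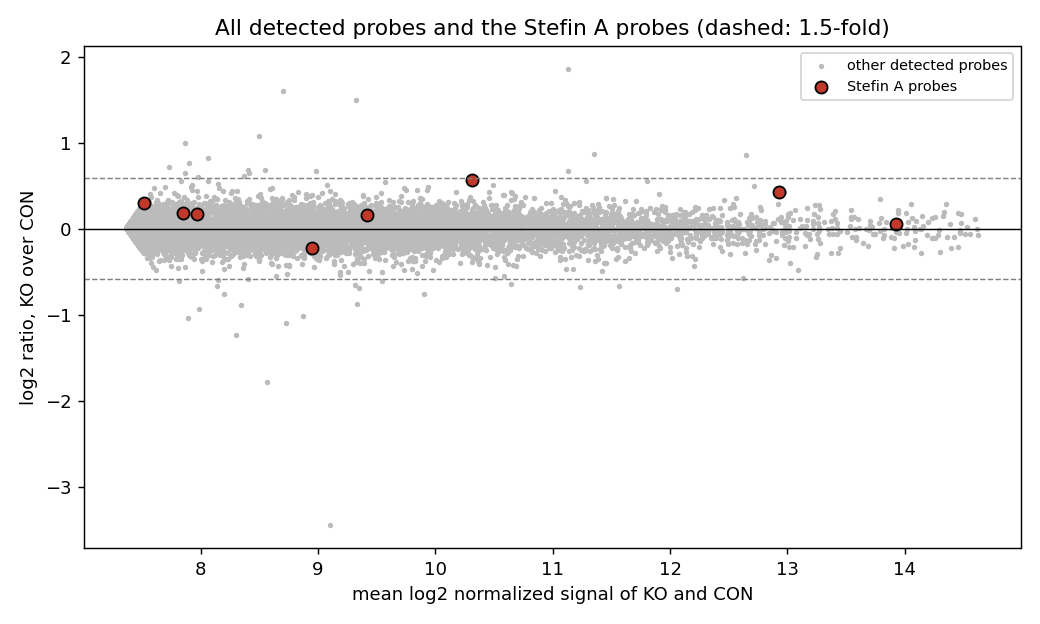
Log2 ratio of KO over CON (vertical axis) against the mean log2 normalized signal (horizontal axis) for all 11318 detected probes in grey and the 8 Stefin A probes in red, with dashed lines at 1.5-fold. The Stefin A probes range from -0.23 to 0.56, and Stfa2 sits just below the upper dashed line.

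The processing moved the size of the differences more than their direction. Before normalization the median of all detected probes was itself 0.08 above 0 (log2), and each Stefin A log2 ratio was higher there than after normalization, by 0.01 for the brighter Stfa3 probe up to 0.13 for Stfa2. At least 1.5-fold higher in KO before normalization was 1 Stefin A probe, Stfa2 (0.345% of all detected probes), also after the medians of the arrays were made equal (0.247% of all). With background removed by normexp and quantile normalization (neqc), 2 probes passed, Stfa2 with 1.55-fold and the dimmer Stfa3 probe with a bound of at least 1.82-fold, where 1.40% of all detected probes passed. In the same values Cstdc6 was 1.30-fold and Cstdc4 1.26-fold higher in KO, Csta1 1.15-fold higher, Stfa1 1.02-fold higher and Csta3 1.25-fold lower. The brighter Stfa3 probe kept a similar size there, at 1.31-fold.

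**Figure D4:**
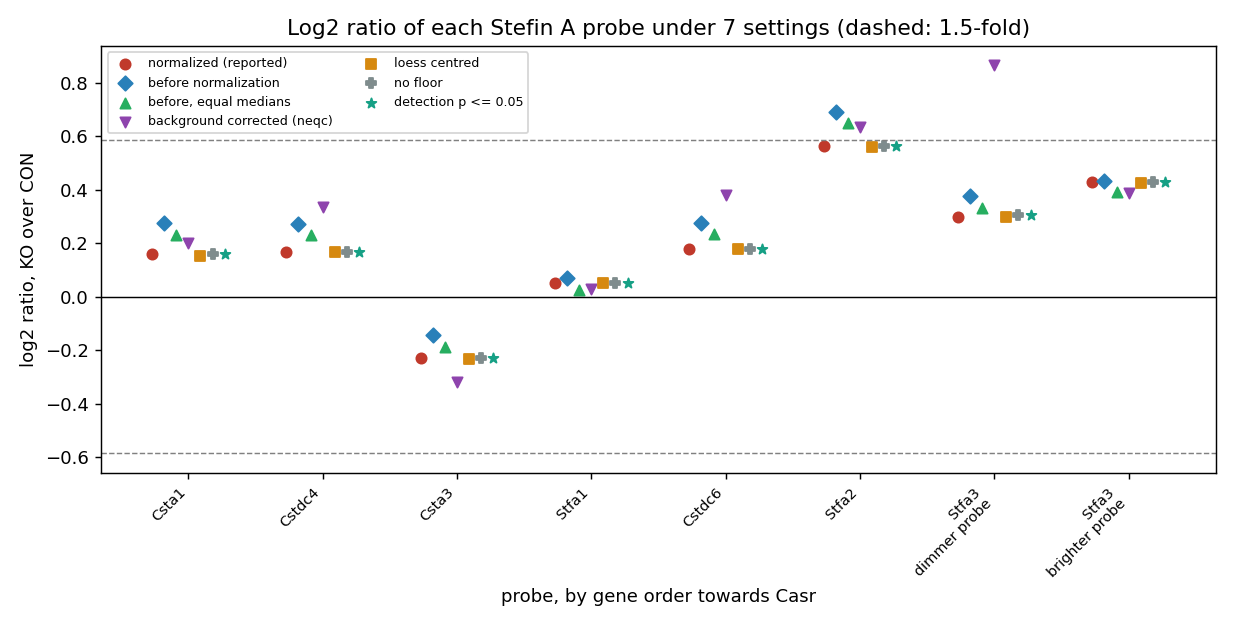
Log2 ratio of KO over CON (vertical axis) of each Stefin A probe (horizontal axis, in gene order towards Casr) under 7 settings shown by marker, with dashed lines at 1.5-fold. Every setting places Csta3 below 0 and the other 7 probes above 0, and the dimmer Stfa3 probe spreads most, up to 0.86.

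Along the chromosome the members follow each other in the order Csta1, Cstdc4, Csta3, Stfa1, Cstdc6, Stfa2 and Stfa3, and then Casr. Stfa3 and Stfa2, with the highest ratios, are also the members closest to Casr, while Csta3 lies between Cstdc4 and Stfa1. For Stfa3 this place rests on the label of its brighter probe, which may read Stfa1. The dimmer probe, tied to Stfa3 by its gene ID, gave a bound of at least 1.23-fold. The place of Stfa2 rests on a label too, as its probe was assigned by symbol alone. Stfa2l1, which lies between Csta1 and Cstdc4, has the promoter most like that of Stfa2 (89.4% of columns). Whether the Stfa2 probe also reads Stfa2l1 was not tested. Casr itself was listed under its older name Gprc2a and had a signal of 148.2 in KO and 122.9 in CON, with detection p-values of 0.0639 and 0.891. It did not rise above background, no fold was computed, and with the site of its probe unknown it does not check the genotype. Csta2, another stefin gene within the cluster, was also not above background, with 127.3 in KO and 134.1 in CON.

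Genes around the cluster had ratios close to 1. In the stretch from 25 genes before Csta1 to 25 genes after Casr, 27 genes other than the members had a probe and 17 of these were detected, 12 with a ratio above 1 and 5 below. Their log2 ratios ran from -0.19 to 0.26 with a median of 0.03, against a median of 0.01 over all 8508 detected genes, of which 52.0% had a ratio above 1. The 5 neighbours below 1 all lay before Csta1. Those after Casr were all above 1, with log2 ratios from 0.01 to 0.26. Iqcb1, which encodes a ciliary protein, was the 1 neighbour at least 1.2-fold apart, and only just. The brightest detected of its 2 probes read 473.7 in KO and 394.3 in CON (1.2-fold). At this fold 2.89% of all detected genes were higher in KO. Ccdc58, the nearest detected gene before the cluster, read 912.6 in KO and 913.3 in CON. Cd86, a costimulatory molecule of antigen-presenting cells, was the nearest gene after Casr. The brightest detected of its 3 probes read 308.3 in KO and 284.1 in CON (1.09-fold).

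**Figure D5:**
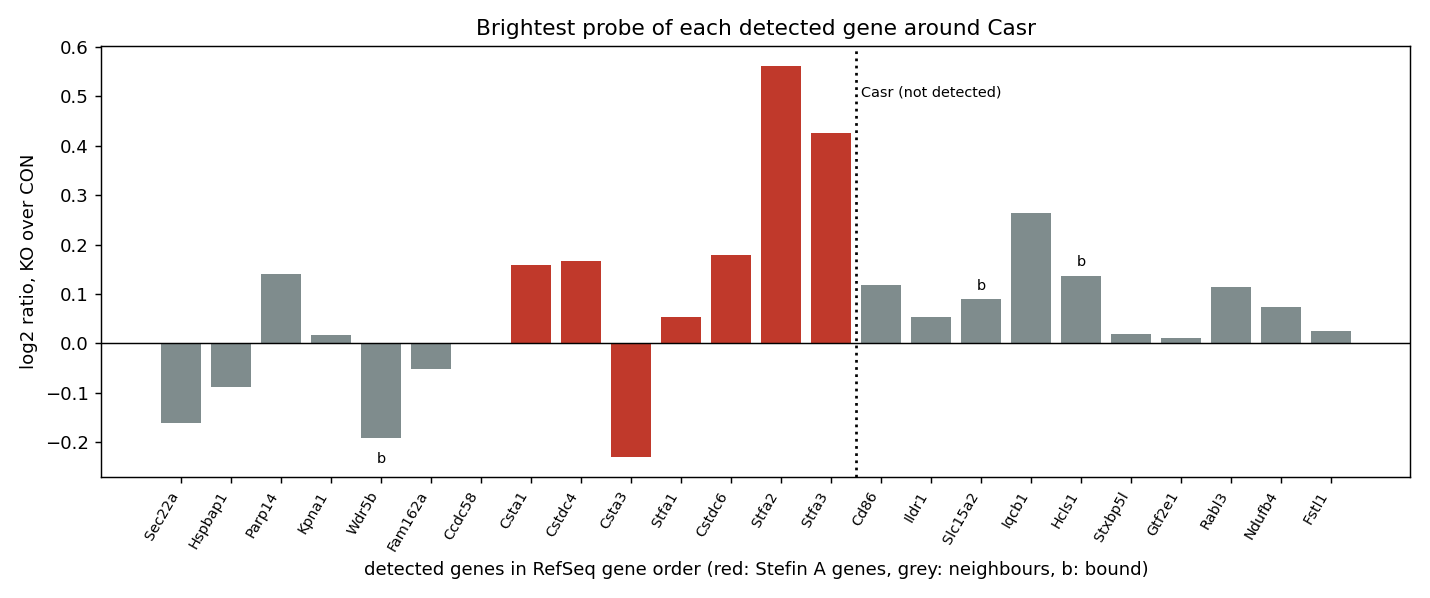
Log2 ratio of KO over CON (bars from 0) of the brightest probe of each detected gene in RefSeq gene order around Casr, with Stefin A genes in red, neighbours in grey, b above or below bars that are bounds, and the place of Casr as a dotted line. Stfa2 and Stfa3, the members closest to Casr, carry the tallest bars, and the neighbours stay between -0.19 and 0.26. The Stfa3 bar is its brighter probe, which may read Stfa1, and the Stfa2 probe was assigned by its symbol alone.

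The cysteine proteases that cystatins bind showed small differences. The list held the papain-type cathepsins, which stefins block, and legumain, which other cystatins block and stefins do not. Of 11 of these genes on the array 8 were detected, 2 with a ratio above 1 and 6 below, where 52.0% of all detected genes were above 1 and 47.6% below, with a median log2 ratio of -0.03. At least 1.2-fold apart was 1, Ctsh, a cathepsin with aminopeptidase activity, which read 2150 in KO and 2672 in CON (1.24-fold lower). At this fold 2.96% of all detected genes were lower in KO. Ctsb, the cathepsin with the brightest probe of this list, read 4567 in KO and 4498 in CON (1.02-fold). Ctsz was at -0.09 on its brightest probe and 0.04 on its other, and Ctsf was at -0.08. The 3 detected cathepsins of other protease classes, which stefins do not block, were all below 1. Ctsa, a serine carboxypeptidase, was 1.17-fold lower in KO on its brightest probe and at -0.15 on its other, with Ctse at -0.07 and Ctsd at -0.01.

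Other cystatins pointed both ways, with 4 of 14 on the array detected, 2 above 1 and 2 below (52.0% and 47.6% of all detected genes). Cstb, the gene of stefin B, the other mammalian stefin, read 18889 in KO and 20346 in CON (1.08-fold lower). Cst3, which encodes the secreted cystatin C, read 6139 in KO and 5715 in CON (1.07-fold higher). Fetub, which encodes the cystatin family protein fetuin-B, read 271.9 in KO and 130.6 in CON, not above background in CON, and was thus at least 1.65-fold higher in KO, a log2 bound of 0.72 that was 1.78 after neqc. The gene of cystatin M/E, Cst6, an inhibitor of cathepsin L and legumain in the upper epidermis, was not above background in either sample. Among calpains, caspases and calpastatin 6 of 7 were detected, 2 above 1 and 4 below. Capn12, a calpain of skin and hair follicles, was 1.35-fold lower in KO, a log2 ratio of -0.43 that was -1.02 after neqc for this dim probe. Casp14, the caspase of cornifying keratinocytes, was 1.25-fold lower, with Cast at -0.11 and Capns1 at -0.11 as log2 ratios.

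Genes of the cornified envelope, of which human stefin A is a constituent, and of the granular layer mostly had ratios below 1. Of the Stefin A genes, Csta3 was below 1 too, Stfa1 was close to 1 and the others were above 1. Of 25 detected cornified envelope and granular layer genes, 19 had a ratio below 1, against 47.6% of all detected genes, with a median log2 ratio of -0.11. The other 6 were above 1, with Krt10 the highest at a log2 ratio of 0.22. At least 1.2-fold lower in KO were 4 of the 25, where 2.96% of all detected genes were. These included the protease gene Klk6 (1.57-fold lower), the precursor gene Ivl (1.40-fold lower) and the transglutaminase gene Tgm5 (1.40-fold lower on its brightest probe, and -0.43 and -0.14 on its others). The brightest of the list, Asprv1 and Lce1c, were at -0.11 and -0.21.

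Markers of cells that could contribute stefin transcripts were read in the same way. Of 19 neutrophil and immature myeloid markers on the array 3 were detected, S100a8 with 1155 in KO and 1517 in CON, S100a9 with 231.0 in KO and 349.6 in CON, and Mmp9 with 251.6 in KO and 233.7 in CON. Their summed signal was 1637 in KO and 2100 in CON. The log2 ratio of S100a9 was -0.60, and -1.11 after neqc. S100a8 and S100a9 are also made by keratinocytes, and the granule protein genes Ngp, Ltf, Camp, Elane and Mpo were not above background in either sample. Langerhans cell and macrophage markers were detected for 7 of 9 genes, all above 1 on their brightest probe (52.0% of all detected genes were above 1), with a median log2 ratio of 0.12 and a summed signal of 12759 in KO and 12039 in CON. Averaged over all probes of a gene that median was 0.03. H2-Aa was at 0.23, Csf1r at 0.18 on its brightest probe and -0.15 on its other, Cd74 at 0.03 with -0.06 on its other, H2-Ab1 at 0.12 with -0.05 to 0.02 on its others. Adgre1 had a bound of 0.18 or more on its brightest probe and 0.03 on its other. Mast cell markers were detected for 0 of 6 genes and fibroblast markers for 2 of 6, Dcn with 502.7 in KO and 519.2 in CON (0.15 as the log2 ratio on its other probe) and Col1a1 with 169.3 in KO and 169.7 in CON. All 8 keratinocyte markers were detected, with Krt5 at -0.28, Krt14 at -0.20, Krt10 at 0.22 and Dsp at 0.24, a median of 0.06 and a summed signal of 84447 in KO and 85893 in CON. In such bulk RNA, fewer cells of a type and less RNA per cell cannot be told apart, and the part of any of these cells in the Stefin A ratios was not tested.

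By signal in the 2 samples, the genes closest to Stfa1, the brightest probe of the cluster, were Rpl31, Rpl23, Rpl27, Rpl3 and Krt17, at distances between 0.05 and 0.11 on the log2 scale. Likeness over 2 samples says only that these genes had similar signals in KO and in CON.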

How the data were processed

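Epidermal RNA of 1 KO pool and 1 CON pool was hybridised to Illumina bead arrays, and the submitters' processing notes name GenomeStudio 2011.1. The authors deposited intensity values before and after normalization, by a method not given in the sources used here. After normalization the ranked intensity values of both arrays agreed within 0.172 percent, and the value table of the series was identical. The authors also deposited a detection p-value per probe.

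Probes were matched to current symbols by gene ID, accession, symbol or synonym against RefSeq genes of GRCm38.p6, used for names and gene order (25375 matched, 322 kept the file's symbol). A gene was represented by its detected probe with the highest mean signal. Values were computed with Python 3.11.15, limma 3.58.1 in R 4.3.3 (neqc, offset 16), statsmodels 0.14.6 (loess, fraction 0.3) and Biopython 1.88 (global alignment, match 1, mismatch -1, gaps -2 and -0.5). The ratio calculation was tested on simulated data.

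With 1 array a group no significance test was made. Precision is limited by having 2 arrays in all. The members and lists were chosen with earlier results of these data known. Named genes were all members, Casr, family genes between members, and for each list up to 3 members with the largest absolute log2 ratio and the 2 brightest, neighbours at least 1.2-fold apart, the nearest detected neighbour on each side and the 5 genes with the closest signals to the brightest member. Members of the fixed lists that are named as not above background were added after their values were seen. Alternatives were the table before normalization, equal medians, neqc, loess centring, no floor, a detection p-value of at most 0.05, 1 probe a gene and the mean over probes.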

Additional observations from a re-analysis of the deposited data

How the results depend on the processing

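The direction of all 8 Stefin A probes was the same in all 7 settings. These settings reuse the same 2 arrays, and loess centring, no floor and the looser detection limit hardly change the ratios. Their agreement is therefore no independent evidence for the direction. The number of Stefin A probes at least 1.5-fold higher in KO was 0 in the normalized table, 1 before normalization, 1 with equal medians and 2 after neqc, and the number at least 1.5-fold lower was 0 in each. The median log2 ratio of the Stefin A probes was 0.17 in the normalized table and 0.36 after neqc, which removes background that draws dim signals towards equality. Over all detected probes, 18 were at least 1.5-fold higher in KO in the normalized table, 39 before normalization, 28 with equal medians and 158 after neqc. At least 1.5-fold lower were 22 in the normalized table and 157 after neqc. Loess centring, no floor, the looser detection limit and 1 probe a gene left these values of the cluster within the spread between probes. No paired analysis was possible because each group has 1 sample, and for the same reason no sample could be left out. The dim probes of Cstdc4, Cstdc6 and Stfa3 are limited by signal over background. Stfa1 lies near the top of the scale, and whether that limits its ratio was not tested.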
